A study of Homo sapiens with 6 samples.

Results

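The 8 genes described here encode phosphodiesterases that break down cyclic AMP (cAMP): PDE4A, PDE4B, PDE4C, PDE4D, PDE3A, PDE3B, PDE7A and PDE8A. They were taken by gene symbol from the 60591 rows of the count table, and all 8 were found. The set was chosen by role, with the fold changes of these genes between the conditions of these same libraries already in view. All 8 passed the filter on low counts. RNA came from 6 libraries of MDA-MB-231, an established human breast cancer cell line that lacks oestrogen receptor, here as a variant that homes to bone and in a 3D model of bone loading. Static cultures had no flow (0 mL/min), low flow cultures had fluid shear at 1 mL/min and high flow cultures had it at 15 mL/min, with 2 libraries each. All groups share the cell line and the variant, and the labels give no count of clones or cultures. Whether the 2 libraries of a group came from separate cultures is not stated, and the p-values then cover the spread among these libraries alone, which may be technical.

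Cells make cAMP with adenylyl cyclases when Gs-coupled receptors are engaged, and phosphodiesterases are the enzymes that remove it. PDE4, PDE7 and PDE8 enzymes act on cAMP and spare cyclic GMP, while PDE3 enzymes bind both and are slowed by cyclic GMP. PDE4 enzymes are the targets of rolipram and roflumilast, and anchoring proteins hold them near protein kinase A, so that cAMP is limited to small regions of the cell. Several PDE4 genes are known to be induced by cAMP itself through CREB, which makes them part of a feedback loop. Fluid shear on bone and endothelial cells is known to release prostaglandins, which act in part through Gs-coupled receptors.

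Library totals ran from 17822642 to 53279537 counts, and the 2 lowest totals were the static libraries. By the column names, lane 1 held both high flow libraries and lane 2 the other 4. The names of the high flow columns also differ from the others in format and carry a suffix for sorted alignments. Whether the lanes belong to the same run is not stated. In the comparisons with high flow, the flow therefore cannot be told apart from the lane or from other differences in handling. These comparisons also share libraries with each other and with low flow against static. Log2 fold changes were related to transcript GC content across 14975 genes, with a Spearman rho of 0.09 for low flow against static, 0.41 for high flow against static and 0.60 for high flow against low flow. These rho values are across genes, which are not independent replicates. The labels call the cells endothelial cancer cells. VIM, a mesenchymal filament gene that marks this line, was at 3618 to 5031 CPM (the count scaled to library size with TMM), and all 8 markers of the line had a mean of at least 1 CPM. Of 7 luminal breast markers, listed as low in this line, 4 also had such a mean. These were ERBB2 (58.0 CPM), FOXA1 (17.8), GATA3 (8.08) and EPCAM (3.35), while ESR1 (0.23), CDH1 (0.03) and PGR (0) did not. Of 8 endothelial markers 4 had such a mean, TIE1, ESAM and PECAM1 among them, while the defining endothelial genes CDH5 and CLDN5 were at most 0.09 CPM. Summed endothelial marker levels were 65.2 to 87.5 CPM in static, 82.1 to 95.4 in low flow and 91.3 to 94.7 in high flow libraries, and their part in the results was not tested.

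The list of 8 genes was drawn up with earlier results of these data known. Their fold changes and adjusted p-values are therefore a description of the fit and support nothing beyond it. Adjusted p-values come from edgeR's quasi-likelihood test over 20676 genes, with Benjamini-Hochberg adjustment in each comparison and a threshold of 0.05. In low flow against static 1 of the 8 was higher and 0 were lower, where 3.25% of all tested genes were higher and 3.49% lower. In high flow against static 1 was higher and 1 lower, against 7.49% and 6.43% of all genes. In high flow against low flow 0 were higher and 1 was lower, against 0.242% and 0.0919% of all genes. At an unadjusted p under 0.05 the 0 counts stayed 0, as they did with DESeq2. The median log2 fold change of the 8 was 0.06, -0.01 and -0.05 in these comparisons, against 0.01, 0.00 and 0.01 over all genes tested.

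Levels of different genes were compared per length, as CPM per kilobase of annotated exon. PDE4A, PDE8A and PDE4D lay together at the top. PDE4A had a mean of 7.32 CPM per kb over the 6 libraries, PDE8A 6.75 and PDE4D 5.92. The order among them was not the same in every library, since PDE4A was above PDE8A in 4 of 6 and PDE8A above PDE4D in 5 of 6. PDE4D was above the next gene, PDE4B, in all 6 libraries without overlap. PDE4B averaged 1.30 CPM per kb and PDE7A 1.22, and their ranges overlapped. PDE3B followed at 0.40 CPM per kb, below PDE7A in all 6 libraries. PDE4C and PDE3A were lowest, at 0.093 and 0.089 CPM per kb, with overlapping ranges. PDE4D has 29 annotated transcripts spread over 16308 exon bases, the longest exon total of the 8, so its level per length is low if the cells use only some of those exons.

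**Figure D1:**
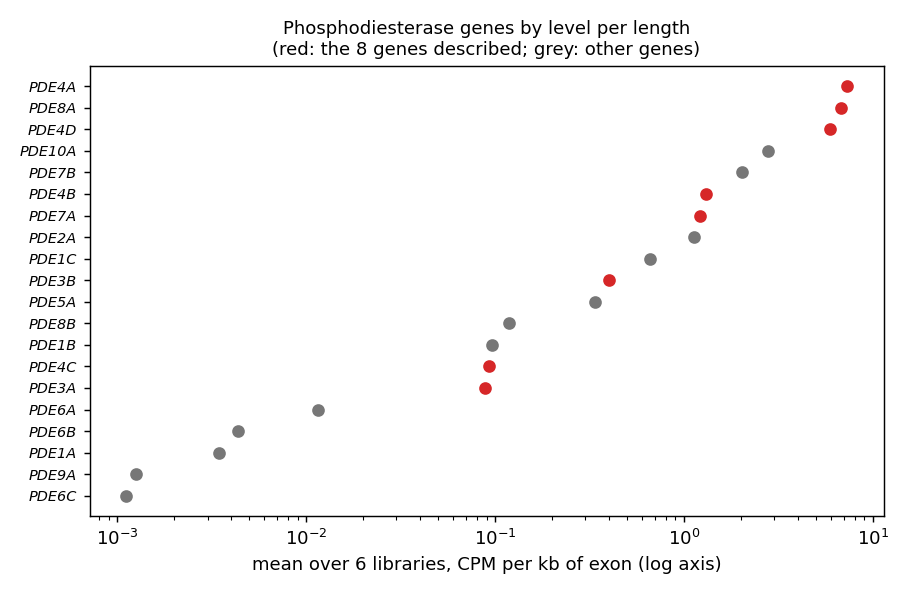
Mean level of 20 cyclic nucleotide phosphodiesterase genes over the 6 libraries, in CPM per kb of exon on a log axis, with the 8 genes described in red and other phosphodiesterase genes in grey. PDE4A (7.32), PDE8A (6.75) and PDE4D (5.92) stand at the top and PDE10A (2.78) is the highest of the others.

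PDE4B was lower under high flow than in both other conditions. PDE4B (ENSG00000184588.17, chromosome 1, 65792514 to 66374579, plus strand, GRCh38) encodes the PDE4 subtype best known for its induction in inflammatory cells. It stood at 12.4 and 14.2 CPM in the static libraries, 13.0 and 13.2 in the low flow libraries and 7.93 and 6.80 in the high flow libraries. Both high flow libraries lay below all 4 others, and the static and low flow ranges overlapped. The raw counts behind these values were 225 and 327, 591 and 635, and 339 and 362. Against static, PDE4B under high flow was 1.81-fold lower, with a log2 fold change of -0.86 (standard error, SE, 0.14, 95% interval -1.16 to -0.56, edgeR adjusted p = 0.00119). Against low flow it was 1.78-fold lower, with a log2 fold change of -0.83 (SE 0.14, interval -1.12 to -0.54, edgeR adjusted p = 0.00750). Between low flow and static the log2 fold change was -0.03, with an interval of -0.32 to 0.27. In these bulk libraries, less PDE4B RNA per cell and fewer cells that express it cannot be told apart, and this holds for each gene below. The fall against static passed under each of the 13 alternatives run, with log2 fold changes from -0.97 to -0.75. The fall against low flow did not pass without high flow replicate 1 (log2 fold change -0.94, adjusted p = 0.0985) or without high flow replicate 2 (-0.73, adjusted p = 0.248), where 1 high flow library remained. With offsets for transcript length and GC content the values were -0.83 and -0.78, and both passed.

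PDE4A was higher under both flow rates than static. PDE4A (ENSG00000065989.15, chromosome 19, 10416773 to 10469631, plus strand) encodes the PDE4 subtype that includes widely expressed long forms. Static libraries had 41.4 and 34.7 CPM, low flow libraries 46.7 and 53.9, and high flow libraries 60.0 and 55.3. The 3 groups did not overlap, and the order of the group means followed the flow rate. Among all tested genes, both high flow libraries lay above the other 4 for 11.8%. Both static libraries lay below the other 4 for 19.1%. Under high flow PDE4A rose 1.52-fold, or 0.60 in log2 (SE 0.11, interval 0.37 to 0.84, edgeR adjusted p = 0.00273). Under low flow it rose 1.32-fold, or 0.41 in log2 (SE 0.11, interval 0.17 to 0.64, edgeR adjusted p = 0.0383). Between the flow rates the log2 fold change was 0.20, with an interval of -0.03 to 0.43 that spans 0 (edgeR adjusted p = 0.587). PDE4A has a GC content of 58.8% in its longest transcript, above the 40.3% to 44.8% of PDE4B, PDE4D, PDE3A, PDE3B, PDE7A and PDE8A. With the length and GC offsets its log2 fold change under high flow was 0.36 (adjusted p = 0.0234), which is smaller by more than 1.5 times. The high flow call ended without static replicate 2 (0.48, adjusted p = 0.0729) and without high flow replicate 1 (0.55, adjusted p = 0.0717). The low flow call held in 6 of 13 alternatives. It ended without static replicate 2 (0.29, adjusted p = 0.297), without low flow replicate 2 (0.30, adjusted p = 0.330), and without high flow replicate 1 or 2 (adjusted p = 0.0765 and 0.0769). With only the 4 libraries compared its adjusted p was 0.0840.

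PDE4D had its highest mean under low flow and its lowest under high flow. PDE4D (ENSG00000113448.18, chromosome 5, 58969038 to 60522120, minus strand) encodes the PDE4 subtype that arrestins recruit to activated receptors. It had the most counts of the 8, from 1641 to 5412. It was at 90.5 and 104.4 CPM in static, 104.1 and 112.5 in low flow and 83.6 and 84.0 in high flow libraries. Both high flow libraries were below the other 4, while static and low flow overlapped. No comparison passed. The log2 fold change of high flow against low flow was -0.37, with an interval of -0.58 to -0.16 and an unadjusted p of 0.00145, but an edgeR adjusted p of 0.175. Against static it was -0.22 under high flow (interval -0.43 to -0.01, edgeR adjusted p = 0.153) and 0.15 under low flow (interval -0.06 to 0.36, edgeR adjusted p = 0.379). Both libraries of high flow lay below the other 4 for 10.9% of all tested genes, which is the background for the pattern of PDE4B and PDE4D.

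PDE4C, the fourth PDE4 subtype, was close to the limit of detection. It had 15 to 25 counts per library. Static libraries were both at 0.83 CPM, low flow libraries at 0.46 and 0.52, and high flow libraries at 0.54 and 0.47. The static libraries lay above the other 4, as they did for 19.3% of tested genes, and no comparison passed (edgeR adjusted p = 0.274 for low flow and 0.246 for high flow against static). Of the exon bases of PDE4C, 70.7% are shared on the same strand with AC008397.2, an annotated protein-coding gene with 13 to 26 counts, so reads of these genes may not be told apart.

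**Figure D2:**
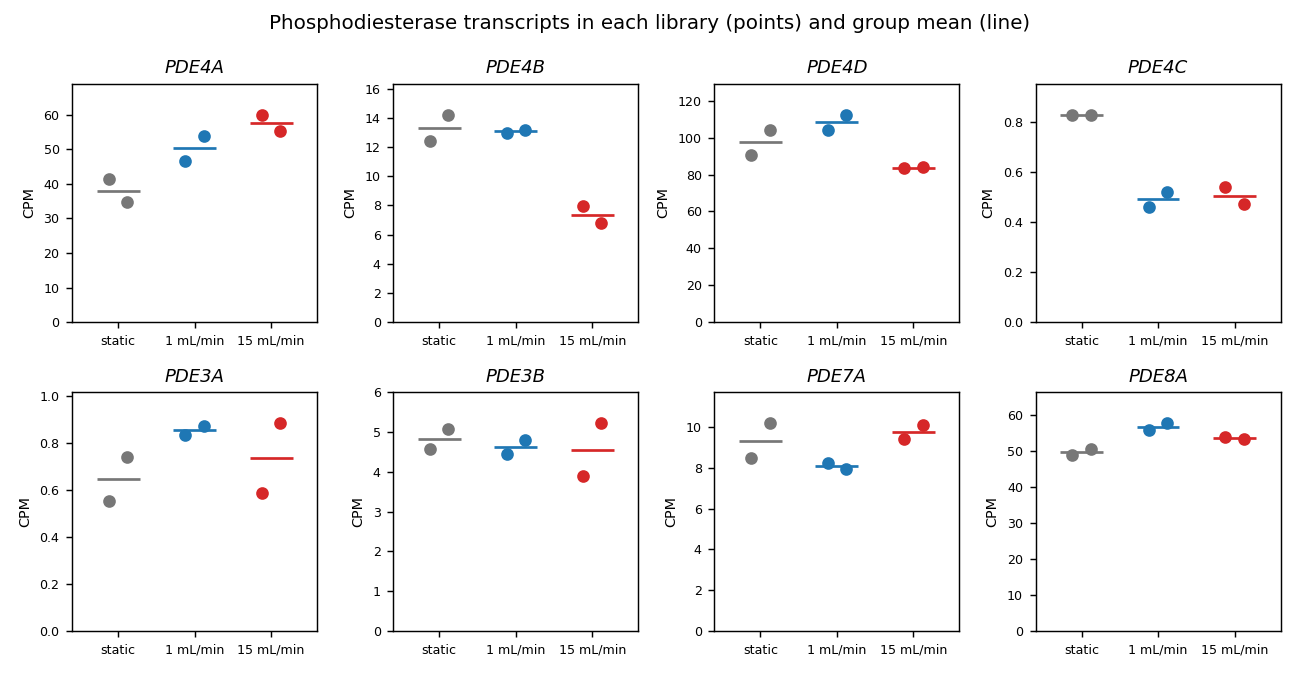
CPM of each of the 8 genes in the 6 libraries, with 1 point per library and a line at the mean of each group of 2 (grey static, blue 1 mL/min, red 15 mL/min); each vertical axis starts at 0. PDE4A runs from 34.7 to 60.0 CPM without overlap between groups, and PDE4B is at 6.80 and 7.93 CPM under high flow against 12.4 to 14.2 in the other libraries.

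Start regions of the genes were read from RefSeq (GRCh38.p14), which lists 250 bases before and 50 after each start, for 6 of the 8 genes. Each was searched for the cAMP response element TGACGTCA, the CREB binding motif, and for its shorter form TGACG, on both strands. One full element contains 2 overlapping copies of TGACG. The full element was in 1.85% of the 35116 windows in the table and TGACG in 24.6%. Among the 5 PDE4A windows, the one at the most upstream start held 1 full element and 7 copies of TGACG. At least 7 copies were in 4 of the 35116 windows, this one included. That cutoff was set at the count seen here, so it is a description only. The other 4 PDE4A windows held none. None of the 6 PDE4B windows held either motif, and 1 of 8 PDE4D windows held 1 copy of TGACG. PDE4C had 1 copy in 4 windows, and the windows of PDE3A (1) and PDE8A (3) had none. GENCODE 29 annotates 9 transcript starts for PDE4A, 18 for PDE4B, 27 for PDE4D and 3 for PDE3A, more than the windows listed. The PDE3A window begins at 20571829, inside a gene annotated from 20369245. Starts outside these windows were not searched, so the counts do not describe the whole genes. A match is a run of letters and not evidence of binding, and counts per gene do not say which start was used in these cells. The stretches below are from the 3 PDE4 genes with the most counts, 100 bases long before a start (and 5 bases past it for PDE4A). For PDE4A and PDE4D the stretch comes from the only window of the gene that held a motif, so the stretches are examples and not a comparison of the genes. TGACG, its reverse complement CGTCA and the full element are in capitals.
PDE4A, first start, chr19:10416673-10416777, plus strand: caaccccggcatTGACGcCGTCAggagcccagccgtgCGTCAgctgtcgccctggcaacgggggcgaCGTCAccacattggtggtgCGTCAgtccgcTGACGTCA
PDE4B, first start, chr1:65792410-65792509, plus strand: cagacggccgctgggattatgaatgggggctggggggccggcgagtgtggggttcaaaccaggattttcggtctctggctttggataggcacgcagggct
PDE4D, the fourth start, chr5:59587626-59587725, minus strand: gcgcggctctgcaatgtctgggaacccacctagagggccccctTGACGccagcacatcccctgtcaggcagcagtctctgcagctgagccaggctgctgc

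The shares of PDE4A, PDE4B and PDE4D within the summed level of the 8 genes differed between high flow and the other conditions. The sum itself was 21.1 and 21.7 CPM per kb in static, 23.6 and 25.5 in low flow and 23.6 and 23 in high flow libraries. The 4 PDE4 genes together held 61.8% to 65.2% of that sum in every library. Within it, PDE4A held 29.5% and 24.1% in static, 29.7% and 31.8% in low flow and 38.2% and 36.2% in high flow libraries. PDE4D held 26.3% to 29.5% in the static and low flow libraries and 21.7% and 22.4% under high flow. PDE4B held 6.80% and 7.58% in static, 6.35% and 5.99% in low flow and 3.88% and 3.42% in high flow libraries. The share of PDE8A was between 28.6% and 29.9% in all 6. The ratio of PDE4A to PDE4B per length, which does not depend on library scaling, was 4.34 and 3.17 in static, 4.68 and 5.32 in low flow and 9.84 and 10.6 in high flow libraries. Both high flow ratios were above the other 4. The ratio of PDE4A to PDE4D was 1.12 and 0.82 in static, 1.10 and 1.18 in low flow and 1.76 and 1.62 in high flow. These shares and ratios use the genes listed above with their values known and carry no test. PDE4A is richer in GC than PDE4B and PDE4D. With the length and GC offsets the rise of PDE4A under high flow against static was smaller, while the fall of PDE4B changed little. The ratios were not recomputed with the offsets, and the part of GC content in them was not tested.

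**Figure D3:**
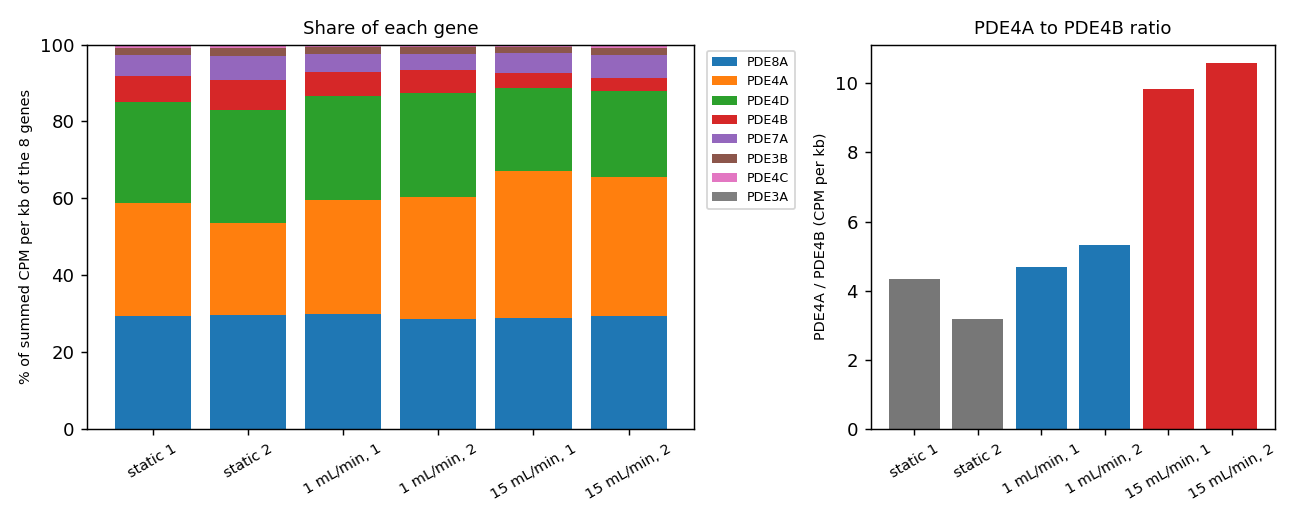
Left, share of each of the 8 genes in their summed CPM per kb, as stacked bars per library in percent; right, ratio of PDE4A to PDE4B in CPM per kb per library (grey static, blue 1 mL/min, red 15 mL/min). PDE4A takes 36.2% and 38.2% under high flow against 24.1% to 31.8% elsewhere, and the ratio is 9.84 and 10.6 against 3.17 to 5.32.

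PDE8A, a high-affinity cAMP phosphodiesterase that rolipram does not inhibit, varied least among the 3 most abundant genes. PDE8A (ENSG00000073417.14, chromosome 15, 84980440 to 85139145) was at 48.7 and 50.5 CPM in static, 55.7 and 57.5 in low flow and 53.8 and 53.3 in high flow libraries. The 3 groups did not overlap, yet no comparison passed. Its log2 fold change was 0.19 under low flow (interval -0.01 to 0.39, edgeR adjusted p = 0.241) and 0.11 under high flow (interval -0.09 to 0.31, edgeR adjusted p = 0.481). Groups that do not overlap were common among all tested genes. In low flow against static they were 53.4% of genes (27.1% higher, 26.3% lower), and of the 8 genes here 3 were higher and 2 lower. In high flow against static they were 59.3% (29.9% higher, 29.4% lower), and here 2 were higher and 3 lower. In high flow against low flow they were 42.7% (21.2% higher, 21.5% lower), and here again 2 were higher and 3 lower. These counts are near the background.

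PDE7A, a phosphodiesterase known for high affinity for cAMP and expression in T cells, is on chromosome 8. It stood at 8.49 and 10.2 CPM in static, 8.21 and 7.92 in low flow and 9.41 and 10.1 in high flow libraries. Both low flow libraries were the lowest, as they were for 6.6% of all tested genes. No comparison passed (edgeR adjusted p = 0.411 for low flow and 0.824 for high flow against static, 0.558 for high flow against low flow).

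The PDE3 genes, whose enzymes are the targets of cilostazol and milrinone, were low. PDE3B (ENSG00000152270.8, chromosome 11, 14643723 to 14872044), the form that mediates part of the action of insulin on fat cells, was at 4.58 and 5.09 CPM in static, 4.46 and 4.80 in low flow and 3.91 and 5.22 in high flow libraries. The high flow libraries spanned the range of all the others, and the log2 fold changes lay between -0.08 and -0.02 in the 3 comparisons. PDE3A (ENSG00000172572.6, chromosome 12, 20369245 to 20684381), the main cardiac and platelet form, had 10 to 47 counts per library. Its values were 0.55 and 0.74 CPM in static, 0.83 and 0.87 in low flow and 0.59 and 0.88 in high flow libraries. No comparison passed, and at this depth the interval for low flow against static was wide, from -0.43 to 1.20 in log2.

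**Figure D4:**
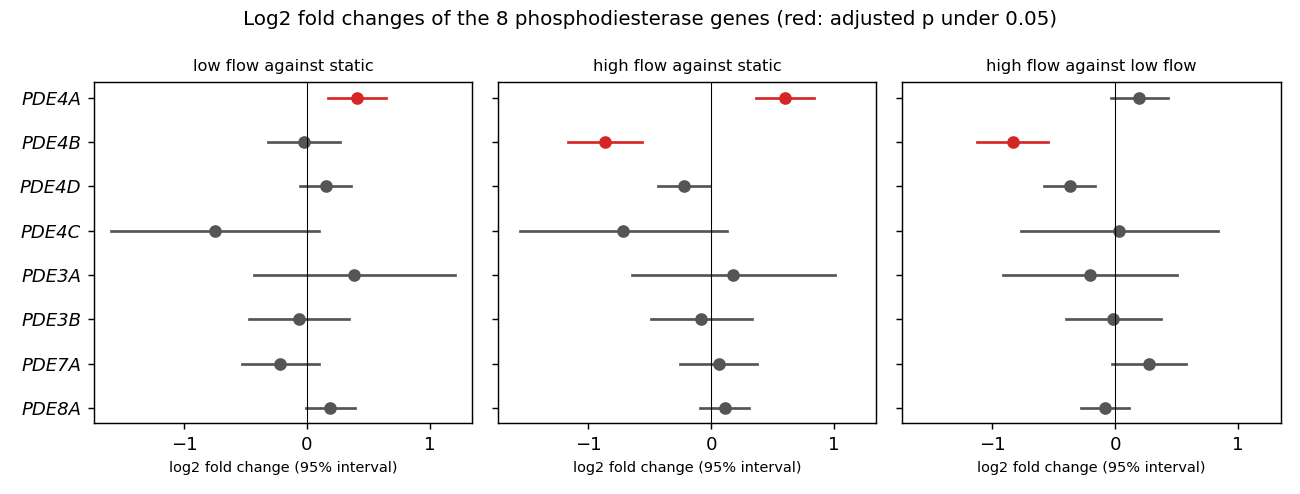
Log2 fold changes of the 8 genes with 95% intervals in the 3 comparisons, from the fit of all 6 libraries; red marks an adjusted p under 0.05. PDE4A is red in both comparisons with static (0.41 and 0.60), and PDE4B in both comparisons of high flow (-0.86 and -0.83).

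The other 13 cyclic nucleotide phosphodiesterases were measured for comparison. Of these 8 passed the filter, and PDE1A, PDE6A, PDE6B, PDE6C and PDE9A, with at most 7 counts in any library, did not. PDE10A, which acts on both cyclic nucleotides, was the highest at 2.78 CPM per kb, followed by PDE7B at 2.02, both above PDE4B. In edgeR 0 of the 8 were called in any comparison. At an unadjusted p under 0.05 there were 3 in low flow against static, 1 in high flow against static and 2 in high flow against low flow, and DESeq2 called 1, 0 and 0. PDE10A was at 52.4 and 58.5 CPM in static, 66.5 and 72.4 in low flow and 56.2 and 61.1 in high flow libraries. Both low flow libraries lay above the other 4, as they did for 7.73% of all tested genes. The log2 fold change of PDE10A under low flow was 0.32 with an edgeR adjusted p of 0.0616. PDE1C, which calmodulin activates, was at 9.37 and 11.5 CPM in static and 8.32 and 6.19 in low flow (log2 fold change -0.53, edgeR adjusted p = 0.0638). Neither PDE10A nor PDE1C passed, so their fold changes are given outside the naming rule, after their values were seen.

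The rest of the cAMP pathway was read from 10 lists holding 140 genes, of which 100 were tested. In low flow against static 3 of the 100 rose and 3 fell, a share called of 6% where 6.74% of all genes were called. In high flow against static 16 rose and 4 fell, 20.0% against 13.9% of all genes. With the length and GC offsets the high flow counts were 6 and 5, or 11% of the 100 against 9.73% of all genes. In high flow against low flow 2 rose and 0 fell with edgeR, 2% of the 100 against 0.334% of all genes, and DESeq2 gave the same counts. The 16 genes named below by rule gave 23 calls. Leaving out static replicate 2 ended 17 of these calls, static replicate 1 ended 10, high flow replicate 1 ended 15, high flow replicate 2 ended 12, low flow replicate 1 ended 1 and low flow replicate 2 ended 3. The calls that held without each library in turn were those of AKAP12, PER1 and NR4A3 in high flow against static.

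Among Gs-coupled receptors, which start cAMP synthesis, 5 of 13 tested genes rose under high flow and 0 fell, where 7.49% of all tested genes rose and 6.43% fell. The list's median log2 fold change was 0.20, against 0.00 over all genes. PTGER4, the EP4 receptor for prostaglandin E2, was at 11.4 and 11.6 CPM in static, 21.6 and 13.8 in low flow and 26.8 and 23.6 in high flow libraries. Both high flow libraries were above the other 4, and the 2 low flow libraries lay far apart. The rise under high flow was 2.20-fold (log2 fold change 1.14, SE 0.19, edgeR adjusted p = 0.00419), and 1.10 in log2 with the offsets (adjusted p = 0.0167). VIPR1, a receptor for vasoactive intestinal peptide, rose under low flow (log2 fold change 0.40, edgeR adjusted p = 0.0428) and high flow (0.49, edgeR adjusted p = 0.0100), and MC1R, the melanocortin receptor, rose under high flow (0.36, edgeR adjusted p = 0.0355). GIPR, the receptor with the highest adjusted p of the 5 (0.0383), was named after its values were seen. With the offsets 2 of the 13 rose, where 4.4% of all genes rose, and VIPR1 (adjusted p = 0.127) and MC1R (0.462) did not.

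Adenylyl cyclases, the enzymes that make cAMP, had 2 of 7 tested genes higher under high flow and 0 lower, against the same 7.49% and 6.43% of all genes. ADCY6 was at 41.8 and 37.8 CPM in static and 49.3 and 50.6 in high flow (log2 fold change 0.33, edgeR adjusted p = 0.0399). ADCY7 was at 37.9 and 37.0 CPM in static and 47.2 and 47.9 in high flow (0.35, edgeR adjusted p = 0.0408). Neither passed with the offsets, where the log2 fold changes were 0.09 and 0.16. Of the 7 G protein alpha subunits and the 9 subunits and inhibitors of protein kinase A, 0 were called by edgeR or DESeq2 in any comparison. At an unadjusted p under 0.05 there were 0 alpha subunits, and 1 kinase gene in each comparison of high flow.

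Of 10 tested effectors and exporters of cAMP, 2 rose under high flow and 1 fell, or 30% called against 13.9% of all genes. Under low flow 1 rose and 0 fell, or 10% against 6.74%. With the offsets 0 rose and 1 fell under high flow, or 10% against 9.73% of all genes. RAPGEF3 (Epac1), a cAMP-activated exchange factor for Rap, was at 2.65 and 2.48 CPM in static, 4.06 and 4.28 in low flow and 4.40 and 4.34 in high flow libraries. It rose under both flow rates (log2 fold changes 0.71 and 0.77, edgeR adjusted p = 0.0420 and 0.0168), and neither passed with the offsets (adjusted p = 0.0777 and 0.137). RAPGEF4 (Epac2) rose under high flow from 1.27 to 3.02 CPM (edgeR adjusted p = 0.0456), with static libraries at 1.71 and 0.83, and did not pass with the offsets (0.0740). In the same list HCN4, a channel gated by cAMP that is named here after its values were seen, fell from 0.55 and 1.30 CPM in static to 0.35 and 0.26 in high flow libraries, on 10 to 30 counts (edgeR adjusted p = 0.0388). Of 13 A-kinase anchoring proteins 2 rose under high flow and 0 fell, or 15.4% called against 13.9% of all genes. AKAP12 (gravin), which binds protein kinase A and PDE4D, was at 115 and 124 CPM in static, 121 and 148 in low flow and 243 and 198 in high flow libraries. Both high flow libraries lay above the other 4. AKAP12 rose 1.84-fold against static (log2 fold change 0.88, SE 0.12, edgeR adjusted p = 0.000307) and 1.64-fold against low flow (0.71, SE 0.12, edgeR adjusted p = 0.00938). The rise against static passed in all 13 alternatives, and that against low flow in 10. AKAP13 was the other (log2 fold change 0.31, edgeR adjusted p = 0.0450), and it did not pass with the offsets (adjusted p = 0.275). Of 7 tested proteins that bind PDE4, 1 rose under high flow and 0 fell, or 14.3% called against 13.9% of all genes. It was ARRB1, a beta-arrestin that carries PDE4D to receptors (log2 fold change 0.57, edgeR adjusted p = 0.0166). With the offsets ARRB1 had an adjusted p of 0.0603, and of the 7 genes 0 rose and 1 fell.

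Genes known to be induced through CREB moved in both directions. Under high flow 3 of 17 tested genes rose and 3 fell, and under low flow 1 rose and 3 fell. That is 35.3% called under high flow against 13.9% of all genes, and 23.5% under low flow against 6.74%. The list's median log2 fold change was 0.07 under high flow and 0.00 under low flow. NR4A3, an orphan nuclear receptor, was at 3.53 and 5.56 CPM in static, 4.98 and 4.22 in low flow and 17.5 and 12.5 in high flow libraries, so its rise was seen in high flow (log2 fold change 1.70 against static, edgeR adjusted p = 0.000440, and 1.70 against low flow, edgeR adjusted p = 0.00219). SIK1, a kinase that holds CREB coactivators in the cytoplasm, was at 1.38 and 1.17 CPM in static, 2.59 and 3.08 in low flow and 2.6 and 4.06 in high flow libraries, and rose in both comparisons with static (edgeR adjusted p = 0.0217 and 0.00408). PER1, a circadian clock gene, was at 58.6 and 53.0 CPM in static, 45.0 and 42.1 in low flow and 34.5 and 30.9 in high flow libraries, and the groups did not overlap. It fell by 0.36 in log2 under low flow (edgeR adjusted p = 0.0468) and by 0.77 under high flow (edgeR adjusted p = 0.000274). AREG, an EGF receptor ligand, fell by 0.72 and 0.55 in log2 (edgeR adjusted p = 0.00352 and 0.00731), and EGR1 fell by 1.11 under low flow (edgeR adjusted p = 0.0261). EGR1 and BDNF, the 2 called under high flow beyond these, are named for that comparison after their values were seen (log2 fold changes -1.10 and 0.47). Of the 11 genes of the CREB family, its coactivators and SIK kinases, SIK1 and the coactivator CRTC1 rose under high flow, or 18.2% called against 13.9% of all genes. CRTC1 (log2 fold change 0.46, edgeR adjusted p = 0.00788) did not pass with the offsets (adjusted p = 0.323).

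**Figure D5:**
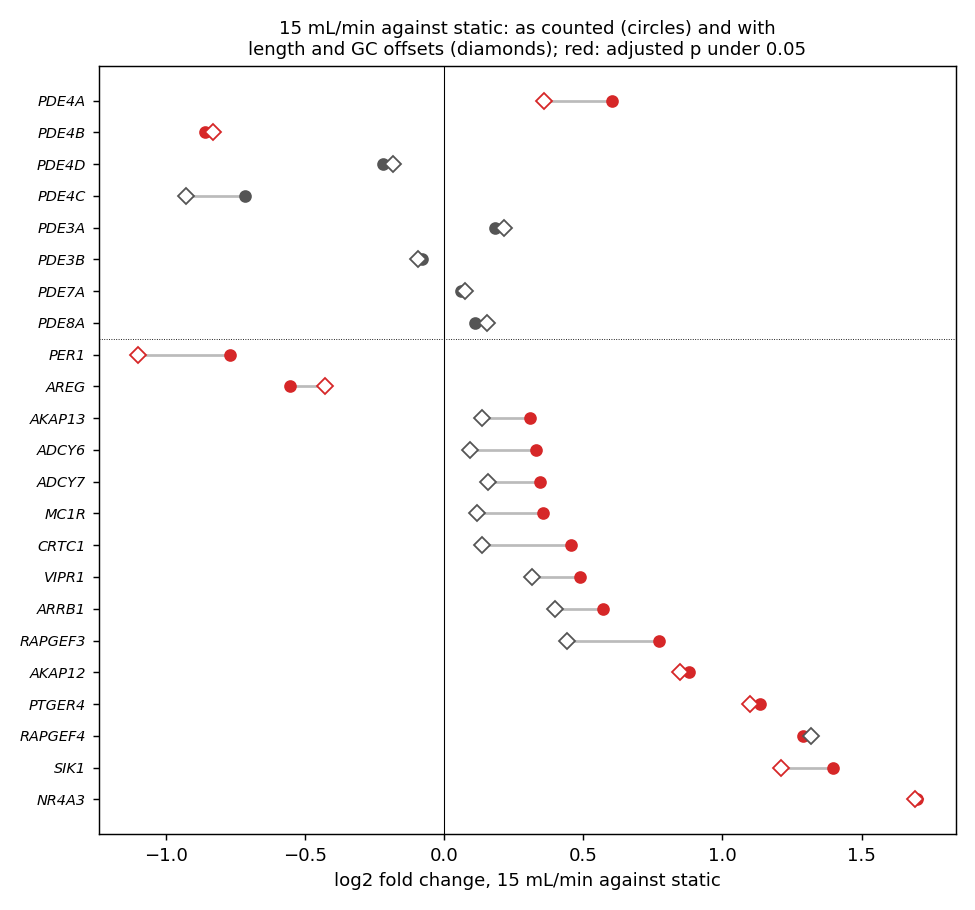
Log2 fold change of high flow against static for the 8 phosphodiesterase genes (above the dotted line) and 15 named genes of the cAMP pathway, as counted (circles) and with offsets for transcript length and GC content (diamonds); red marks an adjusted p under 0.05. PDE4B moves from -0.86 to -0.83 and PDE4A from 0.60 to 0.36, while CRTC1 moves from 0.46 to 0.14.

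The genes whose pattern was most like PDE4A, PDE4B or PDE4D were found among 12666 others with a mean of at least 4 CPM, by Pearson correlation of log2 CPM over the 6 libraries. For PDE4B they were DUSP6, a phosphatase of ERK (r = 0.994), ARRDC3, an alpha-arrestin (r = 0.987), and USP3, a histone deubiquitinase (r = 0.985). For PDE4A they were AC068580.4 (r = 1.000), CORO2A (r = 0.999) and FLYWCH1 (r = 0.999), and for PDE4D AL049697.1 (r = 0.990), HPS5 (r = 0.987) and PPM1L (r = 0.981). The 6 libraries fall into 3 groups and 2 lanes, with lower totals in static than in both flow groups, which all genes share. Among this many genes, values near 1 are given as a description only.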

How the data were processed

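Poly(A) RNA from 6 libraries was sequenced after TRIzol lysis and a KAPA stranded mRNA preparation, per the labels' protocols. The authors deposited raw counts per gene, 60591 rows named by symbol with 1 column per library. Per the submitters' processing notes, STAR, featureCounts and hg38 were used; versions, settings and annotation are not given in the sources used here. The counts were tested with edgeR 4.0.16 in R 4.3.3 (TMM, filter with a minimum count of 10, robust quasi-likelihood fit of all 6 libraries in 3 groups, two-sided), leaving 20676 genes. Exon lengths, GC contents and positions (counted from 1) came from GENCODE 29, where 55101 symbols matched 1 gene; PDE11A did not and has no level per length. CPM values with SD over 2 libraries were computed here. Alternatives were RLE, DESeq2 1.42.0, no filter, only the 4 libraries compared, a replicate block, length and GC offsets from a per-library loess, both together, and each library left out. The phosphodiesterase genes and pathway lists were chosen with earlier results of these data known. Pathway genes named were up to 4 per list and comparison, by p, with an adjusted p under 0.05 and at least 1 CPM. The fit was also run on counts simulated from its own dispersion estimates, which cannot show whether the model suits these 6 libraries. Counts of the 2 libraries of a group differed by more than sampling noise (chi-square per degree of freedom 17.5, 33.2 and 13.3). One gene that the naming rule picks is not reported here.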

Additional observations from a re-analysis of the deposited data

How the results depend on the processing

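Over all genes, calls higher and lower numbered 672 and 722 in low flow against static, 1549 and 1329 in high flow against static, and 50 and 19 in high flow against low flow. Without the expression filter they were 1327 and 933, 2221 and 1328, and 168 and 73. With only the 4 libraries compared they were 267 and 337, 2104 and 1864, and 24 and 12, and DESeq2 gave 90 and 24 between the flow rates. With length and GC offsets they were 781 and 1012, 909 and 1103, and 28 and 13. Leaving out 1 library gave 44 to 1584 and 51 to 1527, 178 to 2178 and 122 to 1838, and 3 to 193 and 1 to 101. Of the 100 pathway genes, DESeq2 called 6 and 5 in low flow against static, no filter 11 and 6, and the offsets 1 and 6. Under high flow against static the offsets called 6 and 5. Between the flow rates no filter called 4 and 1, the offsets 2 and 1, and the 4 libraries alone 1 and 0. Leaving out 1 library gave 0 to 8 and 0 to 8, 3 to 17 and 1 to 5, and 0 to 6 and 0 to 1 pathway genes. Among the 8 phosphodiesterases, the 1 higher in low flow against static became 0 with only the 4 libraries compared, and leaving out 1 library gave 0 to 1 there, 0 to 1 higher in high flow against static, and 0 to 1 lower between the flow rates.

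Whether same-numbered libraries were set up together is not stated. Their deviations correlated at -0.25 for static and low flow, -0.0031 for static and high flow, and 0.11 for low and high flow. With 2 libraries per group these values cannot decide it. With the replicate block calls over all genes were 411 and 496, 1252 and 1014, and 42 and 13, pathway calls 2 and 3, 10 and 3, and 2 and 0, and phosphodiesterases higher under low flow 0. With the replicate block and the offsets they were 520 and 706, 663 and 788, and 28 and 11, pathway calls 1 and 4, 6 and 3, and 1 and 1, and phosphodiesterases higher under low flow again 0.

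Changes of sign were limited to log2 fold changes that had not passed. PDE4B in low flow against static was 0.000876 without the filter and -0.12 to 0.082 with 1 library left out. PDE3B was -0.14 to 0.021 in low flow against static, -0.31 to 0.11 in high flow against static and -0.25 to 0.17 between the flow rates when 1 library was left out, and 0.024 between the flow rates with the offsets and 0.016 with the replicate block added. PDE3A was -0.16 to 0.44 in high flow against static and -0.55 to 0.049 between the flow rates, and PDE7A -0.057 to 0.21 in high flow against static. PDE4C between the flow rates was -0.062 to 0.13 with 1 library left out, -0.087 with the offsets and -0.086 with the replicate block added. The cause of these changes was not tested. Low counts limit PDE4C and PDE3A, and the 2 libraries per group limit every gene.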
